A study of Mus musculus with 8 samples.

Results

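The 9 genes described here were Brca1, Brca2, Bard1, Palb2, Trp53bp1, Trp53, Mdm2, Atm and Parp1, which take part in homologous recombination, damage signalling or the p53 response. They were found by their Entrez Gene IDs in a table of raw counts that lists 24594 genes, and all 9 were in the table. RNA was sequenced from 2 kinds of luminal cell sorted from the mammary glands of virgin wild-type C57BL/6J mice that were 12 to 20 weeks old and had received no treatment. Luminal progenitors (LP), with high c-Kit on the surface, made up 4 libraries, and mature luminal cells, with low c-Kit, made up the other 4. The labels name EpCAM, CD49f, c-Kit and CD14 as the markers of the sort, the study's text names c-Kit as the marker that parted LP from mature cells, and sub-nanogram amounts of RNA were amplified as cDNA before sequencing. No group carried a deletion, transgene or drug, so all comparisons are between the 2 cell populations of unperturbed glands. The study's methods speak of biological replicates, but they give fewer per condition than the 4 libraries of each group here. Each LP library shares a name prefix with the mature library of the same replicate number, with a different prefix for each of the 4 pairs. Whether a prefix stands for 1 animal or a pool is not given in the sources used here, and p-values measure the spread between these libraries.

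Homologous recombination repairs broken DNA from an intact copy and works in S and G2 phase, after replication has made that copy. BRCA1 and BARD1 form a heterodimer that promotes resection of the broken ends, and PALB2 bridges BRCA1 to BRCA2, which acts after resection. 53BP1, the product of Trp53bp1, opposes resection, ATM is the kinase that signals breaks to p53, PARP1 senses strand breaks, and MDM2 is both a target of p53 and the ubiquitin ligase that degrades it. In the mammary gland, luminal progenitors are regarded as the cells from which BRCA1-associated tumours arise.

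Each library held between 4410049 and 7791593 counts, and 12816 genes passed the filter on low counts. The cell identities were checked with marker genes. Of 7 tested LP markers 6 were higher in LP, and all 8 tested markers of mature luminal cells were higher in the mature libraries. Of 7 tested general luminal markers 6 (85.7%) were also higher in the mature libraries, with a median log2 fold change of -1.24. Their summed CPM was 16259 to 17898 in LP and 31171 to 68693 in mature libraries. Mature replicate 3 stood apart, with Kit at 179 CPM (the count scaled to the size of the library) and Elf5 at 112 CPM against 41.2 to 73.5 and 25.7 to 44.0 in the other mature libraries. The leukocyte gene Ptprc did not pass 0.277 CPM in any library. All 9 leukocyte markers together summed to 42.3 to 57.0 CPM in LP and 11.8 to 47.5 CPM in mature libraries. The 3 erythroid markers present summed to 1.87 to 87.5 and 6.04 to 69.0 CPM. Summed CPM of the 9 basal markers was 36.8 to 86.8 in LP and 17.3 to 114 in mature libraries, that of the 6 endothelial markers 4.16 to 15.7 and 32.0 to 48.8, and that of the 7 fibroblast markers 7.49 to 41.7 and 27.1 to 179. Their part in the results below was not tested.

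Of the 9 genes 8 were tested, and 2 of these, Brca1 and Mdm2, were higher in mature cells at an adjusted p under 0.05 in edgeR's quasi-likelihood test. Over all tested genes 24.7% passed the test, 13.8% being higher in mature cells and 10.9% higher in LP. None of the 8 was higher in LP, with 0 also at an unadjusted p under 0.05 and 0 in DESeq2. The median log2 fold change of the 8 (LP over mature) was 0.08, against -2.85e-05 over all tested genes. Every mature library exceeded every LP library for 1 of the 8 genes, Brca1, and for 15.5% of all tested genes. Groups were without overlap in either direction for 29.5% of all tested genes.

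**Figure D1:**
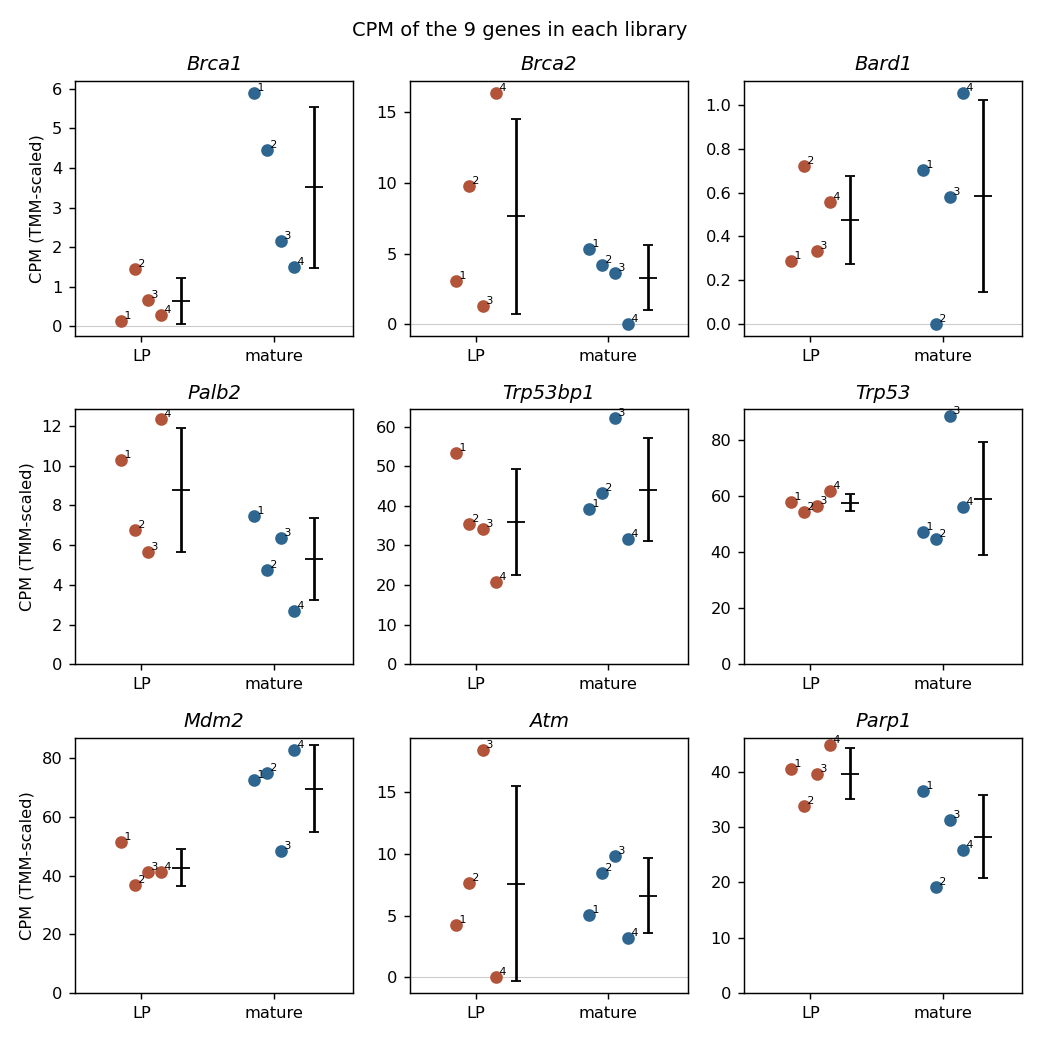
CPM (scaled by TMM factors, linear axes that include 0) of each gene in the 4 LP and 4 mature libraries, with replicate numbers beside the points and the mean and SD as bars. The groups separate for Brca1, Mdm2 overlaps through LP replicate 1 and mature replicate 3, and Brca2, Bard1 and Atm each have a library without a count.

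Brca1 (Entrez 12189, chromosome 11, 101488761 to 101551955, mm10, minus strand) was the lowest in LP of all 9 genes per length and was higher in mature cells. In the LP libraries it had 1, 10, 4 and 2 counts, and in the mature libraries 42, 17, 15 and 10. These came to 0.145, 1.44, 0.664 and 0.277 CPM in LP and to 5.91, 4.47, 2.17 and 1.51 CPM in mature cells. The groups did not overlap, but the highest LP library and the lowest mature library lay close together. Means were 0.631 ± 0.581 CPM in LP and 3.51 ± 2.04 CPM in mature cells (SD, n = 4). The fitted difference was 5.42-fold, with a log2 fold change of -2.44 (SE 0.79, 95% interval -4.18 to -0.69, adjusted p = 0.0448, edgeR quasi-likelihood test). The call rested on 17 counts in LP against 84 in mature cells, and it was lost when the filter on low counts was dropped (adjusted p = 0.0894) and when the replicate number, which the paired library names share, was added as a block (adjusted p = 0.068). The adjusted p was 0.12 without LP replicate 1, 0.0986 without LP replicate 3, 0.124 without LP replicate 4 and 0.105 without mature replicate 2, and without mature replicate 1 or 3 the gene no longer passed the filter.

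The 250 bases before the RefSeq start of Brca1 (GRCm38.p6, chr11:101551956-101552205, minus strand) are shown because Brca1 had the largest difference of the 9 genes, with those of Mdm2 (chr10:117710759-117711008, minus strand), the other gene that passed the test, and of Trp53 (chr11:69580109-69580358, plus strand), which lies head to head with Wrap53. Capitals mark CCAAT, the GC box GGGCGG and the p53 half-site consensus, each on either strand, and no marked motifs overlap.
Brca1: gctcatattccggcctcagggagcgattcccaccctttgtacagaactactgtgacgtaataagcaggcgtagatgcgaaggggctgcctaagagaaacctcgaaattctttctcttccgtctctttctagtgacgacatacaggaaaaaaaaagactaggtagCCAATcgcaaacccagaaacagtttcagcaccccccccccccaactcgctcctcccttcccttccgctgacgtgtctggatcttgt
Mdm2: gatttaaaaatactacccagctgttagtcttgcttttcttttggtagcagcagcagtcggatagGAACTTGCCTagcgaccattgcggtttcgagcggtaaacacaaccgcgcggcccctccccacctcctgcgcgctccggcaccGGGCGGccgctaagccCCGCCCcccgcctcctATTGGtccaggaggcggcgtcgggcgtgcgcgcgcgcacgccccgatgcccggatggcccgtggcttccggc
Trp53: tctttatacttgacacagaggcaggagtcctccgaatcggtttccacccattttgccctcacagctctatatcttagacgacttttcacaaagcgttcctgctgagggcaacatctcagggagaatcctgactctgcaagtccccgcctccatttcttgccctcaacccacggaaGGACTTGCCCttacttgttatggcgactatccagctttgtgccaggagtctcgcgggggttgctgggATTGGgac
The Brca1 window held 1 CCAAT and no GC box, and was 51.2% G and C. The Mdm2 window held 1 CCAAT, 2 GC boxes and 1 p53 half-site, and was 65.6% G and C. Trp53 had 1 CCAAT and 1 p53 half-site. Of 27025 windows of this length, 1 per gene, 34.5% held CCAAT, 32.9% a GC box and 7.18% a p53 half-site. Among the 10164 windows of tested genes the shares were 36.7%, 58.6% and 6.01%. A match is a description of the letters only. The p53-responsive promoter known for Mdm2 lies inside the gene, outside this window.

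The gene that faces Brca1 is Nbr1, whose start is 194 bases away on the other strand. Nbr1 encodes an autophagy receptor and was at 136 ± 23.5 CPM in LP and 167 ± 19.9 CPM in mature cells (SD, n = 4). Its log2 fold change was -0.29 (SE 0.17, adjusted p = 0.235, edgeR) and did not pass the test. Patterns over the 8 libraries were compared by the root mean square difference of centred log2 CPM. The comparison took 7680 genes with a mean of at least 4 log2 CPM, so genes as low as Brca1 were left out. The smallest differences from Brca1 were those of Mpp6 (0.450), Nfil3 (0.532) and H2bc6 (0.552). The median over these genes was 1.29, and the spread of Brca1 around its own mean was 1.26.

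Bard1, the partner of BRCA1 (Entrez 12021, chromosome 1, 71027535 to 71103141), was too low to be tested. Its libraries held 2, 5, 2 and 4 counts in LP and 5, 0, 4 and 7 in mature cells, or 0.290, 0.719, 0.332 and 0.555 CPM against 0.703, 0, 0.577 and 1.05 CPM. The groups overlapped throughout. By counting error alone, a count of 0 in mature replicate 2 allows up to 0.788 CPM, which is above most of the other libraries. With no filter its log2 fold change was -0.28 (SE 0.99, adjusted p = 0.882, edgeR), and a difference was not detectable at this depth.

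Palb2, which joins BRCA1 to BRCA2 (Entrez 233826, chromosome 7, 122107262 to 122132980), was at 10.3, 6.76, 5.64 and 12.3 CPM in LP and at 7.45, 4.73, 6.35 and 2.71 CPM in mature cells. The LP mean was above the mature mean, 8.76 ± 3.11 against 5.31 ± 2.06 CPM (SD, n = 4), and the groups overlapped. The log2 fold change was 0.72 (95% interval -0.30 to 1.73, adjusted p = 0.285, edgeR). Dctn5, a dynactin subunit whose start lies 56 bases from that of Palb2 on the other strand, had a log2 fold change of 0.55 (adjusted p = 0.0789) and did not pass either.

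Brca2 (Entrez 12190, chromosome 5, 150522297 to 150570147) varied widely between libraries of a group. It was at 3.05, 9.78, 1.33 and 16.4 CPM in LP and at 5.34, 4.2, 3.61 and 0 CPM in mature cells. LP replicates 2 and 4 were the highest, and LP replicates 1 and 3 lay among or below the mature libraries. By counting error alone the 0 of mature replicate 4 allows up to 0.452 CPM. Means were 7.63 ± 6.87 CPM in LP and 3.29 ± 2.31 CPM in mature cells (SD, n = 4). The log2 fold change was 1.22 with an SE of 1.00 (95% interval -0.99 to 3.42, adjusted p = 0.409, edgeR). The interval covers a sizeable difference in either direction. Counts of Brca2 in LP had 40.5 times the variance that counting error alone gives, as the ratio of chi-square to its degrees of freedom. For Brca1 the ratio was 3.75. It grows with the count, 215 in LP for Brca2 and 17 for Brca1, so the 2 ratios do not compare the relative spread of the genes. The opposite signs of Brca1 and Brca2 were not tested against each other.

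Atm (Entrez 11920, chromosome 9, 53437122 to 53536828), the kinase that is activated by double-strand breaks, also varied widely. Its levels were 4.21, 7.62, 18.4 and 0 CPM in LP and 5.06, 8.41, 9.82 and 3.16 CPM in mature cells. LP replicates 3 and 4 held the highest and the lowest value of all 8 libraries. By counting error alone the 0 allows up to 0.416 CPM. Means were 7.56 ± 7.88 and 6.61 ± 3.04 CPM (SD, n = 4), the log2 fold change was 0.19 (95% interval -1.94 to 2.33) and the adjusted p was 0.909 (edgeR). LP replicate 4, without a count of Atm, was the library with the most Brca2. The biological coefficient of variation fitted for Atm was 0.934 and that for Brca2 0.943. The trend at the level of each gene gave 0.565 and 0.614, and the value common to all genes was 0.393. Npat, which starts 307 bases from Atm on the other strand, had a log2 fold change of -0.25 (adjusted p = 0.630).

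Trp53bp1 (Entrez 27223, chromosome 2, 121194835 to 121296354) was at 53.4, 35.4, 34.2 and 20.7 CPM in LP and at 39.1, 43.3, 62.2 and 31.6 CPM in mature cells. The groups overlapped, with means of 35.9 ± 13.4 and 44.1 ± 13.0 CPM (SD, n = 4), and the log2 fold change was -0.30 (95% interval -0.96 to 0.37, adjusted p = 0.517, edgeR). Its exons share 2130 bases with those of Tubgcp4 on the opposite strand, and the strand setting of the counting was not given in the sources used here, so reads of the 2 genes cannot be told apart there. Tubgcp4, a tubulin complex gene, had a log2 fold change of -0.36 (adjusted p = 0.384).

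Parp1 (Entrez 11545, chromosome 1, 180568891 to 180600999) was at 40.5, 33.8, 39.5 and 44.8 CPM in LP and at 36.6, 19.2, 31.3 and 25.9 CPM in mature cells. Only mature replicate 1 was above an LP library. Means were 39.7 ± 4.54 CPM in LP and 28.2 ± 7.45 CPM in mature cells (SD, n = 4). The log2 fold change of 0.48 did not pass the test (SE 0.23, 95% interval -0.03 to 0.99, adjusted p = 0.152, edgeR), and it kept its sign in all 21 alternatives, between 0.36 and 0.65.

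Trp53, which encodes p53 (Entrez 22059, chromosome 11, 69580348 to 69591873), had the highest level per length of the 9 genes in both groups and nearly equal means. It was at 57.8, 54.3, 56.3 and 61.7 CPM in LP and at 47.1, 44.7, 88.2 and 55.9 CPM in mature cells. The LP libraries lay together, and mature replicate 3 was above all others. The log2 fold change was -0.04 (95% interval -0.53 to 0.46, adjusted p = 0.923, edgeR), and without mature replicate 3 it was 0.25 (adjusted p = 0.317). Variance of the counts was 1.20 times that of counting error in LP and 42.2 times in mature cells. The levels concern mRNA, and p53 protein is known to be set largely by its breakdown.

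Wrap53, which starts 104 bases from Trp53 on the other strand and encodes a telomerase holoenzyme protein, was higher in mature cells. It was at 103, 92.6, 106 and 112 CPM in LP and at 198, 227, 256 and 350 CPM in mature cells. Every mature library was above every LP library, and the log2 fold change was -1.32 (SE 0.19, adjusted p = 0.00105, edgeR). The exons of the 2 genes share no bases in the GENCODE M21 annotation.

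Mdm2 (Entrez 17246, chromosome 10, 117688875 to 117710758) was higher in mature cells. It was at 51.5, 36.7, 41.2 and 41.3 CPM in LP and at 72.4, 75.1, 48.4 and 82.7 CPM in mature cells. The groups overlapped only because LP replicate 1 was above mature replicate 3, the library with the most Kit of its group. Means were 42.7 ± 6.30 and 69.7 ± 14.9 CPM (SD, n = 4), and the fitted difference was 1.63-fold, with a log2 fold change of -0.71 (SE 0.20, 95% interval -1.16 to -0.26, adjusted p = 0.0278, edgeR). Without mature replicate 3 the log2 fold change was -0.82 (adjusted p = 0.00908). The call was lost without LP replicate 2, 3 or 4 (adjusted p = 0.0845, 0.0661 and 0.0705), without mature replicate 1, 2 or 4 (0.0637, 0.0687 and 0.0771) and with no filter on low counts (0.0575). Among the same 7680 genes, the patterns most similar over the 8 libraries were those of Bcl10 (root mean square difference 0.102), Cdc73 (0.128) and Pcnp (0.145). The median over these genes was 0.550. For Trp53 they were Psmd13 (0.0775), Osbpl9 (0.107) and Rbm8a (0.117), where the median was 0.50.

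**Figure D2:**
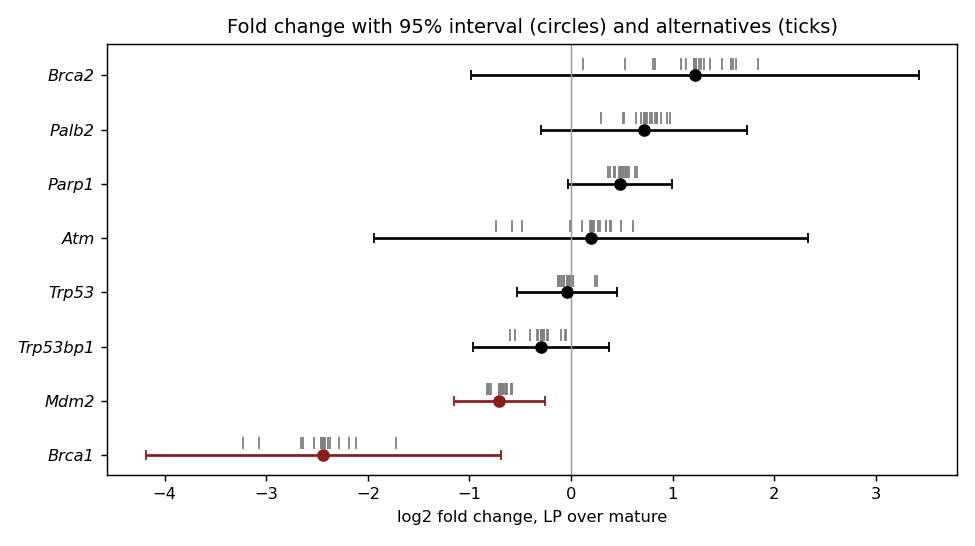
Log2 fold change of the 8 tested genes (LP over mature, edgeR), with the 95% interval as a bar and the value under each alternative as a tick. The intervals of Brca1 and Mdm2 (dark red) lie below 0, those of the other 6 genes cross 0, and the intervals of Brca2, Atm and Brca1 are the widest.

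Per kilobase of exon, the order of mean levels in LP was Trp53 (14.2 CPM per kb), Mdm2 (8.40), Parp1 (7.49), Trp53bp1 (2.54), Palb2 (1.19), Atm (0.732), Brca2 (0.559), Bard1 (0.0838) and Brca1 (0.0740). In mature cells it was Trp53 (14.6), Mdm2 (13.7), Parp1 (5.34), Trp53bp1 (3.11), Palb2 (0.723), Atm (0.640), Brca1 (0.411), Brca2 (0.241) and Bard1 (0.103). The first 6 genes had the same order in both groups. In LP the ranges over libraries were separate between Trp53 and Mdm2 and between Parp1 and Trp53bp1, and all other neighbours overlapped. In mature cells they were separate between Mdm2 and Parp1 and between Trp53bp1 and Palb2, and all other neighbours overlapped. The order of Brca1 and Bard1 in LP, the lowest pair, therefore did not go beyond their spread. In bulk RNA, fewer cells that express a gene and less RNA per cell cannot be told apart.

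**Figure D3:**
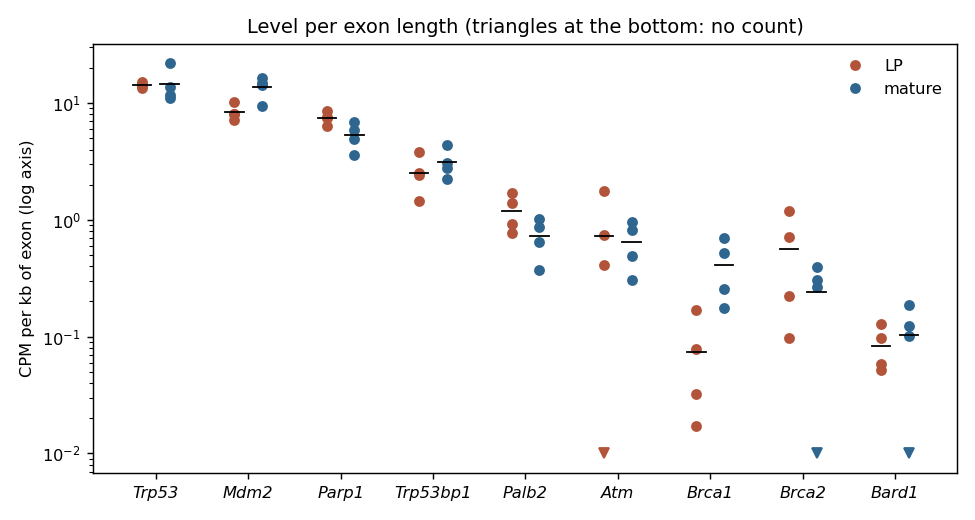
Level per length (CPM per kb of exon, log axis) of the 9 genes in each library, with horizontal bars at the group means and triangles at the bottom edge for libraries with no count. Group means run from 14.6 CPM per kb for Trp53 in mature cells down to 0.0740 for Brca1 in LP. Single libraries with a count run from 21.8 for Trp53 in mature cells down to 0.0170 for Brca1 in LP.

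The genes that work with the 9 were examined in lists. Of 10 tested genes in the list for the BRCA1 complexes, 2 (20%, against 13.8% of all tested genes) were higher in mature cells (edgeR). The 10 include Nbr1, the neighbour of Brca1, which encodes an autophagy receptor and not a subunit of these complexes. Nbr1 did not pass the test (log2 fold change -0.29), and it enters the shares and the median of the list. In LP 0 were higher, against 10.9% of all tested genes, with 0 also at an unadjusted p under 0.05 and in DESeq2. The median log2 fold change of the list was -0.37. Abraxas1, which encodes the scaffold of the BRCA1-A complex, was at 8.80 to 14.5 CPM in LP and 16.2 to 34.4 CPM in mature cells (log2 fold change -1.04, adjusted p = 0.0301). Rbbp8, whose product CtIP starts resection, was at 12.5 to 16.7 and 21.2 to 29.7 CPM (-0.85, adjusted p = 0.0247). In both, as in Brca1, every mature library was above every LP library. This held for 3 of the 10 genes and for 15.5% of all tested genes. With libraries left out, the adjusted p reached 0.164 for Abraxas1 and 0.156 for Rbbp8. The helicase gene Brip1 (-0.97, adjusted p = 0.087) and the ubiquitin-binding gene Uimc1 (-0.73, adjusted p = 0.052) did not pass.

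Of 41 listed genes of homologous recombination 35 were tested, 3 (8.57%) were higher in LP and 3 (8.57%) in mature cells. Over all tested genes the shares were 10.9% and 13.8%. The median log2 fold change of the list was 0.15. Xrcc2, a gene of strand exchange, was at 3.63, 2.3, 2.16 and 2.91 CPM in LP and at 0, 0.263, 0.289 and 0.301 CPM in mature cells, so that the groups lay far apart at a low level (log2 fold change 3.61, SE 0.76, adjusted p = 0.00679). Rpa1, the large subunit of the protein that coats single-stranded DNA (0.99, adjusted p = 0.0374), and Mcm9, a helicase gene (0.61, adjusted p = 0.0331), were also higher in LP. Nbn, which encodes a subunit of the MRN complex (-0.99, adjusted p = 0.0135), the helicase gene Wrn (-0.61, adjusted p = 0.0222) and Rbbp8 were higher in mature cells. With libraries left out, the calls of Rpa1 (adjusted p up to 0.147), Mcm9 (0.146), Wrn (0.13) and Nbn (0.0966) were lost, and that of Xrcc2 was not (0.0429).

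None of 17 tested Fanconi anaemia genes passed in either direction in edgeR, where 24.7% of all tested genes did. The median of the list was 0.20. At an unadjusted p under 0.05, 2 were higher in LP and 0 in mature cells, and DESeq2 called 2 and 0. Of 22 tested genes of damage signalling and the 53BP1 pathway, 2 (9.09%) were higher in LP and 1 (4.55%) in mature cells. The shares of all tested genes were 10.9% and 13.8%. H2ax, the histone that is phosphorylated around breaks, was at 41.2 to 48.6 CPM in LP and 2.89 to 25.6 CPM in mature cells (1.42, adjusted p = 0.0437), and without mature replicate 3 its adjusted p was 0.0511. Atrip, the partner of the ATR kinase, was at 18.2 to 20.9 and 4.73 to 13.4 CPM (1.03, adjusted p = 0.0486). Mad2l2, a subunit of the shieldin complex that acts with 53BP1, was at 19.3 to 28.8 CPM in LP and 49.5 to 65.9 CPM in mature cells (-1.32, adjusted p = 0.00139). The ranges of each of these 3 genes did not overlap between groups. Of the 22, every LP library was above every mature library in 3 (14.0% of all tested genes). The reverse held in 2 (15.5% of all tested genes). With libraries left out, adjusted p reached 0.136 for H2ax, 0.187 for Atrip and 0.0187 for Mad2l2.

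Of 11 tested end-joining genes, Poll, a gap-filling polymerase gene, was higher in LP (1.55, adjusted p = 0.0489). Paxx, which encodes a Ku-binding factor, was higher in mature cells (-1.16, adjusted p = 0.0201). Each was 9.09% of the list, against 10.9% (LP) and 13.8% (mature) of all tested genes. Of 30 tested genes of the PARP family and single-strand repair, 3 (10%) were higher in LP and 2 (6.67%) in mature cells. Over all tested genes 10.9% and 13.8% were. The flap endonuclease gene Fen1 was at 46.8 to 82.6 CPM in LP and 23.1 to 31.1 CPM in mature cells (1.18, adjusted p = 0.00371). Parp14 (1.02, adjusted p = 0.0183) and Parp9 (0.99, adjusted p = 0.0033) were higher in LP as well, and Parp8 (-2.05, adjusted p = 0.0204) and the polymerase beta gene Polb (-1.18, adjusted p = 0.0011) in mature cells. The PARP family thus had called members in both directions. With libraries left out, the calls of Poll (adjusted p up to 0.226), Paxx (0.0849), Parp8 (0.119) and Parp14 (0.0744) were lost.

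**Figure D4:**
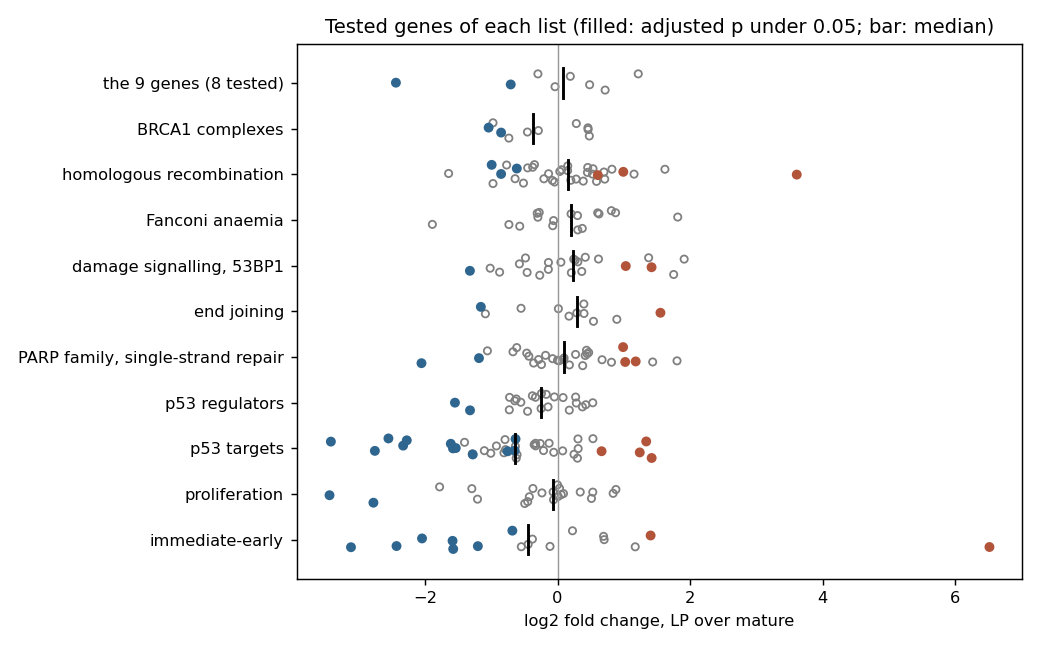
Log2 fold change (LP over mature, edgeR) of every tested gene in each list, with filled points for an adjusted p under 0.05 and a bar at the list's median. The medians run from -0.63 for p53 targets to 0.29 for end joining. The point farthest right is Egr3, whose mature libraries hold 1 count together, so that its position depends on the prior count.

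Of 22 tested regulators of p53, 2 (9.09%, against 13.8% of all tested genes) were higher in mature cells (edgeR). In LP 0 were higher, against 10.9% of all tested genes, with 0 also at an unadjusted p under 0.05 and in DESeq2. The 2 called genes were Wrap53 and Trim24, a ubiquitin ligase gene. Trim24 was at 7.49 to 12.5 CPM in LP and 20.6 to 37.6 CPM in mature cells (-1.55, adjusted p = 0.00391). Mdm4, the relative of Mdm2, had a log2 fold change of -0.33 (adjusted p = 0.25).

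Of 46 listed p53 target genes 40 were tested, and 12 of them (30%, against 13.8% of all tested genes) were higher in mature cells and 4 (10%, against 10.9%) in LP. Their median log2 fold change was -0.63. In 10 of the 40, every mature library was above every LP library, where 15.5% of all tested genes were. Summed CPM of the list was 2443 to 3070 in LP and 4497 to 5744 in mature cells. Of this, Plk2 alone gave a mean of 240 CPM in LP and 1624 CPM in mature cells. The count of 12 was 10 to 14 in the alternatives with all libraries and 6 to 12 when libraries were left out, with 6 when both libraries numbered 2 and 7 when both numbered 4 were removed. The list was drawn up with earlier results of these data known, and the genes have other regulators besides p53.

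The targets that were higher in mature cells included cell-cycle, apoptotic and stress genes. Plk2, a stress-induced kinase gene, was at 445, 195, 193 and 129 CPM in LP and had a mean of 1624 ± 323 CPM in mature cells (SD, n = 4; -2.76, adjusted p = 0.000742). Pmaip1, which encodes the apoptotic protein NOXA, was at 5.08, 2.01, 9.13 and 0 CPM in LP and at 50.2, 64.4, 42.2 and 15.8 CPM in mature cells (-3.42, adjusted p = 0.0133). Ddit4, an inhibitor of mTORC1 signalling that glucocorticoids and hypoxia also induce, was at 28.3 to 84.5 CPM in LP and 106 to 456 CPM in mature cells (-2.55, adjusted p = 0.00469). None of these 3 overlapped between groups. Cdkn1a, which encodes the cell-cycle inhibitor p21, was at 113, 82.2, 129 and 93.1 CPM in LP and at 347, 454, 273 and 201 CPM in mature cells (-1.61). Gadd45a was at 67.7 to 127 CPM in LP and 249 to 544 CPM in mature cells (-2.27), the adhesion gene Perp at 68.7 to 108 and 190 to 236 CPM (-1.28), and Bax, a pore-forming apoptotic gene, at 60.2 to 70.4 and 87.5 to 128 CPM (-0.65). All 4 passed the test. Gdf15, Polk, Trp53inp2, Btg2 and Rrm2b completed the 12.

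The 4 targets that were higher in LP were Rb1, which encodes the retinoblastoma protein (169, 174, 142 and 185 CPM in LP; 44.3, 56.2, 73.3 and 76.1 CPM in mature cells; 1.42, adjusted p = 0.000859), Ephx1, Fbxw7 and Notch1. Ephx1, an epoxide hydrolase gene, had a log2 fold change of 1.34 (adjusted p = 0.00104), the ubiquitin ligase gene Fbxw7 of 1.24 (adjusted p = 0.000859), and Notch1 of 0.66. Several standard targets did not pass, among them Bbc3 (-1.29, adjusted p = 0.31), Ccng1 (-0.61, adjusted p = 0.081), Zmat3 (-1.10, adjusted p = 0.084), Phlda3 (0.31, adjusted p = 0.25) and Sesn2 (-0.21, adjusted p = 0.72). The p53 half-site occurred in the windows of 7 of the 37 targets with a window (18.9%), against 7.18% of all windows and 6.01% of those of tested genes. The list was made of known p53 targets, so this share describes the choice of genes and not the difference between LP and mature cells. Called and uncalled targets were not compared for the half-site.

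**Figure D5:**
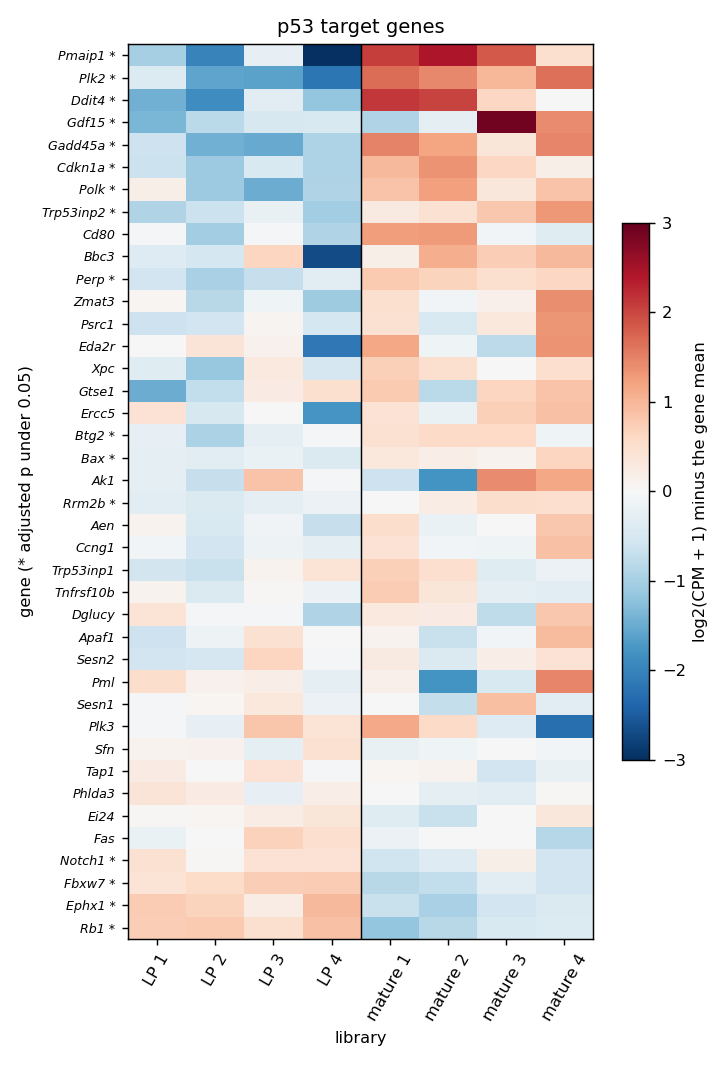
Heat map of log2(CPM + 1) minus the gene's mean over the 8 libraries, for the 40 tested p53 targets, ordered by log2 fold change, with asterisks for an adjusted p under 0.05. The 12 called genes higher in mature cells lie in the upper part and the 4 higher in LP are the bottom rows.

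Immediate-early genes are induced within minutes of a stimulus, and tissue dissociation is known to induce them. Of 17 tested, 7 (41.2%, against 13.8% of all tested genes) were higher in mature cells and 2 (11.8%, against 10.9%) in LP. Summed CPM of the list was 2067 to 2571 in LP and 2756 to 5492 in mature cells. Atf3 was at 18.8 to 67.4 CPM in LP and 155 to 405 CPM in mature cells (-3.12, adjusted p = 0.000859), Jun at 174 to 347 and 502 to 1326 CPM (-2.04, adjusted p = 0.0014), and Nr4a1 at 11 to 17.0 and 25.2 to 155 CPM (-2.43, adjusted p = 0.0044). Ier2 went the other way, at 331 to 459 CPM in LP and 111 to 192 CPM in mature cells (1.40, adjusted p = 0.00102), as did Egr3, at 12.2, 2.16, 4.48 and 3.05 CPM in LP and 0, 0, 0 and 0.151 CPM in mature cells. The part of these genes in the differences of Mdm2 and the p53 targets was not tested.

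Brca1 and its partners are known to be transcribed mostly in dividing cells, and proliferation genes were therefore read beside them. Of 22 tested, 2 (9.09%, against 13.8% of all tested genes) were higher in mature cells and 0 (against 10.9%) in LP (edgeR). In LP there were 0 also at an unadjusted p under 0.05 and in DESeq2. The median log2 fold change was -0.06. Mki67, the Ki-67 gene, was at 0, 0, 0.996 and 0.694 CPM in LP and at 5.91, 2.89, 3.90 and 6.03 CPM in mature cells (-3.44, adjusted p = 0.0255), and the checkpoint kinase gene Bub1b at 0.144 to 2.36 and 4.22 to 15.7 CPM (-2.78, adjusted p = 0.0198). Without mature replicate 3 the adjusted p of Bub1b was 0.0523, and with other libraries left out that of Mki67 reached 0.096. Summed CPM of the list was 268 to 356 in LP and 291 to 381 in mature cells. Mki67, Bub1b and Brca1 were all low and did not overlap between groups, while Pcna (0.06, adjusted p = 0.91) and Top2a (-0.43, adjusted p = 0.82) did not pass the test. Every mature library was above every LP library in 2 of the 22 proliferation genes and in 15.5% of all tested genes. The part of dividing cells in the Brca1 difference was not tested.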

How the data were processed

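The authors trimmed reads with cutadapt 4.2 and aligned them to mm10 with Bowtie2 2.3.5.1 (per the submitters' processing notes), and deposited raw counts per gene, not normalised, for 24594 Entrez Gene IDs, of which 24570 matched RefSeq. The counting program, its annotation, its strand setting and its treatment of reads that match several genes are not given in the sources used here. Amplification from low input can widen the spread of low genes, and intervals that rest on counts alone cover counting error only.

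Symbols came from RefSeq, exon lengths and neighbouring genes from GENCODE M21, and promoter windows from RefSeq on GRCm38.p6. Counts were filtered with filterByExpr, scaled by TMM and tested across 12816 genes with edgeR 4.0.16 (quasi-likelihood test, all 8 libraries, Benjamini-Hochberg adjustment, R 4.3.3). The threshold was an adjusted p of 0.05, and intervals are at the 95% level. CPM values use the TMM-scaled library sizes. Library totals were 5510863 to 7089597 in LP and 4410049 to 7791593 in mature cells. A count of 0 was given an upper limit of 3 counts, for counting error alone. The procedure was tested on simulated data. The 9 genes and the lists were chosen with earlier results of these data known. In each list, up to 3 called genes per direction with the largest fold were named, and other genes were named after their values were seen. The 21 alternatives included DESeq2 1.42.0, other scaling and filters, thinning to the smallest library, a replicate block and leaving libraries out.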

Additional observations from a re-analysis of the deposited data

Results flagged for a closer look

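Among 82 groups of 4 libraries examined, 1 for each named gene and cell population, 4 held a library whose gap to the nearest other passed Dixon's 95% critical value for the share of the group's range, and 1 in 20, or 4.1, are passed by chance. Xrcc2 in mature replicate 1 was at 0 CPM, where the other mature libraries were at 0.263, 0.289 and 0.301 CPM (gap 0.872 of the range). Wrn in mature replicate 2 was at 42.0 CPM against 47.8 to 48.1 CPM (0.953). Fen1 in mature replicate 4 was at 23.1 CPM against 30.0 to 31.1 CPM (0.869). Egr3 in mature replicate 4 was at 0.151 CPM and at 0 in the other 3 mature libraries (1), which is a difference of 1 count.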

How the results depend on the processing

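Both calls among the 9 genes, Brca1 and Mdm2, were near the threshold. The number of called genes was 2, all higher in mature cells. It was 0 with no filter on low counts, 1 with at least 10 counts in every library, 1 with a replicate block, 1 with all libraries thinned to the smallest, and 0 to 1 when libraries were left out. Brca1 was called in 7 of the 17 alternatives in which it was tested (log2 fold change -3.22 to -1.73, adjusted p 0.0114 to 0.224). Mdm2 was called in 11 of 21 (-0.83 to -0.58, adjusted p 0.00908 to 0.162). No other of the 9 passed in any alternative, and among them the sign of the uncalled values of Trp53 (-0.13 to 0.25) and Atm (-0.74 to 0.61) varied. Over all genes the count of 3161 was 1615 to 3414 with libraries left out (736 to 1668 higher in LP, 879 to 1746 in mature cells), and that of the pathway lists, 46, was 27 to 48 (9 to 17 and 17 to 31). Of 32 named list genes 17 were called in every alternative that tested them. Abraxas1, Rbbp8, Rpa1, Mcm9, Nbn, Wrn, H2ax, Atrip, Poll, Paxx, Parp14, Parp8, Pmaip1, Mki67 and Bub1b were not, with adjusted p up to 0.226 (Poll), most often with libraries left out.

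Libraries with the same replicate number, whose names share a prefix, correlated by 0.0618 to 0.148 in their deviations from the group means, not over 0.1 in all 4 pairs, and each LP library correlated best with the mature library of its own number. With the replicate block 3027 genes were called and 47 in the pathway lists, and of the 9 genes Mdm2 was called (adjusted p = 0.0428) and Brca1 was not (0.068). Of the named list genes Rbbp8, Atrip and Poll were not called with the block. Depth limits Brca1 and Bard1, which rest on 1 to 42 and 0 to 7 counts a library.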
